A study of Homo sapiens with 3 samples.

Results

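Transcripts of voltage-gated sodium, potassium and calcium channels and their relatives were measured in NCI-H209 cells, an established line from a human small cell lung cancer. The set holds protein-coding genes whose symbols begin with CACNA, CACNB or CACNG, SCN followed by a number and A or B, or KCN with a letter code and a number. Of 60609 genes counted, 135 met this rule, and 69 of these had a mean of at least 1 CPM (counts scaled to a library total of 1000000) over the 3 libraries and are described here. The symbol rule takes in potassium channels that are not opened by voltage, namely the inward rectifiers (KCNJ), the two-pore leak channels (KCNK), small-conductance calcium-activated and sodium-activated channels (KCNN, KCNT), and accessory subunits that form no pore. The gene just inside the limit was KCNJ8, with 13, 5 and 4 counts in sh490, sh1362 and shGFP and a mean of 1.05 CPM. The gene just outside it was SCN4B, with 7, 2 and 8 counts and a mean of 0.934 CPM.

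The cells carried lentiviral hairpins under tetracycline control in the Tet-pLKO-puro vector. The sh490 and sh1362 cells each carried a different hairpin to YES1, a Src-family tyrosine kinase, and the hairpin of the control, shGFP, was directed at green fluorescent protein. All 3 groups received doxycycline at 1 µg/mL every 2 days, and the polyadenylated RNA of each group gave 1 library. The labels do not say how long the cells were induced or whether each library had a culture of its own. Each fold of 1 hairpin below therefore compares 1 library with another, and each fold fitted to both hairpins compares 2 libraries with 1.

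Voltage-gated channels open when the membrane depolarises. Sodium channels carry the upstroke of the action potential, calcium channels let in the calcium that triggers release of hormones and transmitters, and potassium channels end the spike and set the resting potential. The pore is formed by an alpha subunit, and accessory subunits alter its gating and its transport to the surface. Small cell lung cancer cells of the neuroendocrine kind are known to be electrically excitable and to secrete peptides on calcium entry, and antibodies against the P/Q-type calcium channel encoded by CACNA1A occur in patients with Lambert-Eaton myasthenic syndrome.

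The libraries held 7791747 (sh490), 7421552 (sh1362) and 4899006 (shGFP) counts. Gene counts given below are not scaled for these totals, so equal counts in all 3 libraries mean a higher level in shGFP. YES1 itself was at 20.9 and 29.1 CPM in the hairpin libraries and 299 CPM in shGFP. All 8 neuroendocrine markers were detected, with summed levels of 3684, 4534 and 3138 CPM in sh490, sh1362 and shGFP. Red cell markers stood apart in the control: 4 of the 5 were detected, 1 was at 0, and their summed level was 725 CPM in the control beside 19.0 (sh490) and 20.3 (sh1362). White cell markers summed to 0.257, 1.62 and 6.12 CPM, fibroblast markers to 9.24, 6.60 and 7.35 CPM and endothelial markers to 1.41, 2.16 and 3.27 CPM, with CD3E and DCN at 0. Every fold against the control rests on the shGFP library, the only one of its kind, and the part of the red cell RNA in those folds was not tested. Comparisons of sh490 with sh1362 do not use it. Mitochondrial transcripts took 5.50%, 7.78% and 5.47% of the counts.

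Channel transcripts were dominated by SCN3A, the pore subunit of a sodium channel best known from embryonic and neonatal brain. The share of SCN3A in all channel counts was 50.8% with sh490 (exact 95% counting interval 50.1 to 51.5), 53.4% with sh1362 (52.8 to 54.1) and 47.4% in the control (46.5 to 48.3). The 135 genes together took 0.251%, 0.294% and 0.252% of the library. Intervals here and below cover counting error only, because each hairpin and the control had 1 library. The reads carry no molecular identifiers and may be copies of 1 molecule, so even counting error may exceed these intervals. Of the 69 described genes, 45 had a mean of 5 CPM or more. The plot of channel levels by class shows 1 gene far above the rest, which stay at or below 214 CPM.

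**Figure D1:**
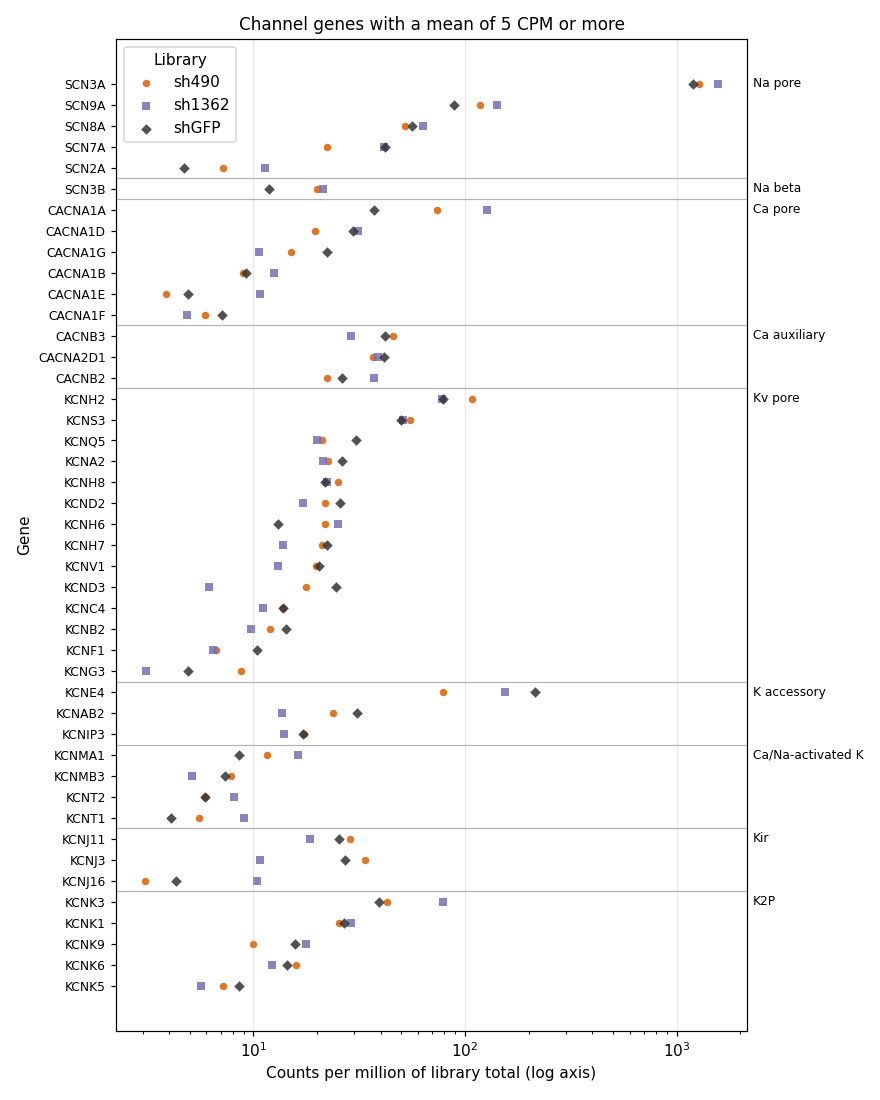
Levels of 44 of the channel genes whose mean was at least 5 CPM, 1 row per gene, on a log axis of CPM. Each symbol is 1 library (circle sh490, square sh1362, diamond shGFP), with no replicates and so no error bars, and genes are grouped by class, named at the right. SCN3A lies at 1193 CPM or more in every library, and every other gene lies at or below 214 CPM.

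CPM values grow with transcript length, so levels of different genes were compared per kilobase of exon (RPKM). SCN3A had 110, 135 and 103 RPKM in sh490, sh1362 and shGFP. It remained first on this scale, with a mean of 116, or 3.21 times that of the next gene. KCNE4, a single-pass subunit that dampens Kv1-type currents, followed at a mean of 36.2, and KCNS3, an electrically silent subunit that modifies Kv2 channels, at 16.6. KCNH2, the pore of the hERG potassium channel, had a mean of 15.2. The spread of KCNS3 over the libraries (15.9 to 17.5) lay within that of KCNH2 (13.4 to 18.6), so these neighbours cannot be ranked. KCNK3 (8.64), SCN9A (8.33), KCNK1 (7.65) and KCNJ11 (7.56) came next, and their ranges over the libraries overlapped as well. The median gene stood at 1.37 RPKM, 9 genes reached 5 and 31 lay under 1. The order depends on which exons are counted: CACNA1A has 43159 bases of exon in the tables but 8665 in its longest protein-coding transcript, and moved from rank 29 to rank 8 when the latter was used.

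**Figure D2:**
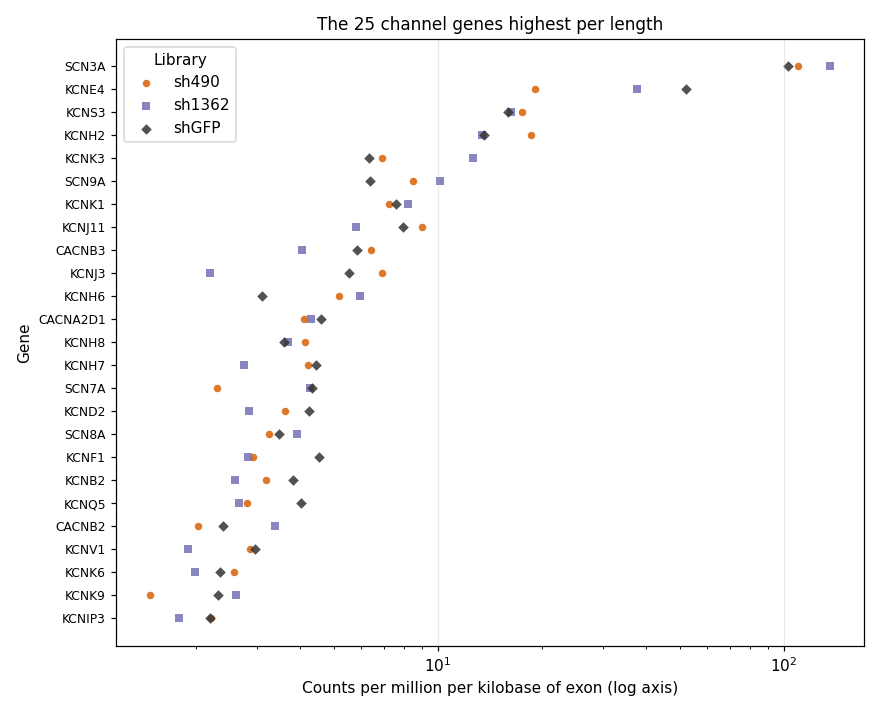
The 25 channel genes with the highest mean per length, on a log axis of CPM per kilobase of exon (RPKM). Each symbol is 1 library (circle sh490, square sh1362, diamond shGFP), with no replicates. SCN3A (mean 116) is set apart from KCNE4 (36.2), KCNS3 (16.6) and KCNH2 (15.2), and KCNE4 has the widest spread of those 4.

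Of the 10 sodium pore genes, 6 passed 1 CPM and 2 were at 0 in all libraries. SCN3A (ENSG00000153253.18, chromosome 2, 165087522 to 165204067, minus strand, GRCh38) had 9922, 11646 and 5844 counts in sh490, sh1362 and shGFP, equal to 1273, 1569 and 1193 CPM. Differences and ratios between libraries, unlike CPM, were scaled with edgeR's TMM factors, and log2 differences were taken with a prior count of 2. The log2 difference of SCN3A from shGFP was 0.05 with sh490 and 0.38 with sh1362, so only the sh1362 library stood clearly above the control (1.31 times the control, 1.26 to 1.35). SCN9A, the peripheral sodium channel of sensory and sympathetic neurons, had 118, 142 and 88.6 CPM and was higher in both hairpin libraries (log2 0.37 and 0.66). SCN8A, found at nodes of Ranvier and axon initial segments, had 52.4, 63.1 and 56.1 CPM, with log2 differences of -0.14 and 0.16. SCN7A, an atypical member that responds to sodium concentration, had 22.3, 41.6 and 42.0 CPM. The sh490 library alone was low for SCN7A, at 0.515 times the control (0.419 to 0.634). SCN2A, the adult brain channel, had 7.19, 11.3 and 4.69 CPM, and SCN4A, the skeletal muscle channel, had 17, 1 and 18 counts.

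SCN1A, SCN2A, SCN3A, SCN7A and SCN9A lie together on the long arm of chromosome 2, and their levels were far apart. SCN1A had 2, 3 and 5 counts in sh490, sh1362 and shGFP and did not pass 1 CPM. SCN2A and SCN3A overlap by 9075 bases on opposite strands, with no shared exon bases, yet SCN2A had 0.575% of the mean CPM of SCN3A. SCN2A also shares exon bases with an antisense-type transcript that held 137, 132 and 88 counts, more than SCN2A itself.

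Of the 4 sodium beta subunit genes, which encode single-pass proteins that alter channel gating and cell adhesion, 2 passed 1 CPM. SCN3B had 19.9, 21.3 and 11.8 CPM in sh490, sh1362 and shGFP, so both hairpin libraries were above the control (log2 0.69 and 0.82).

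CACNA1A had the highest level of the 10 calcium pore genes, 7 of which passed 1 CPM. CACNA1A (ENSG00000141837.20, chromosome 19, 13206442 to 13633025, minus strand, GRCh38) had 573 (sh490), 939 (sh1362) and 183 (shGFP) counts, or 73.5, 127 and 37.4 CPM. Both hairpin libraries lay above the control, at 1.91 times its normalised level with sh490 (1.61 to 2.27) and 3.36 times with sh1362 (2.87 to 3.96). The edgeR quasi-likelihood test of both hairpins against shGFP gave a log2 difference of 1.40 (SE 0.41) with an unadjusted p of 0.010, and an adjusted p of 0.986 over 15708 genes. Without the filter on low counts the same test gave CACNA1A a log2 difference of 1.42 (SE 0.33) and an adjusted p of 0.0154, the only call for any described channel gene in any of the fits run. That fit called more genes in all, 58 of 27622 (0.21%) against 4 of 15708 with the filter.

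The remaining calcium pores did not follow CACNA1A. CACNA1B, the N-type channel of nerve terminals, had 8.98, 12.5 and 9.19 CPM in sh490, sh1362 and shGFP (log2 -0.07 and 0.43). CACNA1E, the R-type channel, had 3.85, 10.8 and 4.90 CPM and was high in sh1362 alone. Summed over CACNA1A, CACNA1B and CACNA1E, the 3 channels of the Cav2 family, the levels were 86.4, 150 and 51.4 CPM. CACNA1A made up most of each sum, at 73.5, 127 and 37.4 CPM. The L-type pore CACNA1D, which opens at low voltage in endocrine and pacemaker cells, had 19.6, 31.4 and 29.6 CPM and was low in sh490 alone (log2 -0.63 and 0.07). The T-type pore CACNA1G, which opens near rest, had 15.1, 10.6 and 22.2 CPM and was below the control in both (log2 -0.59 and -1.05). CACNA1I, another T-type pore, had 36, 4 and 16 counts, so sh1362 was the low library. CACNA1F, known from the retina, had 46, 36 and 35 counts.

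Among 16 auxiliary calcium genes, 7 passed 1 CPM, and 7 of the 8 CACNG genes were at 0 in all libraries. The beta subunit CACNB3, which carries the pore to the surface, had 45.9, 28.97 and 41.8 CPM in sh490, sh1362 and shGFP. CACNA2D1, an extracellular subunit bound by gabapentin, was nearly level at 36.8, 38.7 and 41.2 CPM. CACNB2 had 22.2, 37.1 and 26.1 CPM. CACNB4 was the exception, with 17 and 14 counts in the hairpin libraries against 31 in the shallower shGFP library (2.18, 1.89 and 6.33 CPM). Its log2 differences were -1.46 and -1.61, with an edgeR unadjusted p of 0.028 and an adjusted p of 0.986. CACNB1 had 25, 10 and 6 counts and was at least 2-fold above the control in sh490 only. CACNA2D2 and CACNA2D3 had no more than 32 counts in any library.

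Voltage-gated potassium pores were the most numerous class, with 20 of 40 genes above 1 CPM and 7 at 0. Their median log2 difference was -0.11 with sh490 and -0.43 with sh1362, beside -0.04 and -0.10 over all 69 genes. The KCNH family had 6 of 8 genes above 1 CPM. KCNH2 had 108, 77.9 and 78.8 CPM in sh490, sh1362 and shGFP, high in sh490 alone (1.33 times the control, 1.18 to 1.503). Its close relative KCNH6 had 21.8, 25.1 and 13.1 CPM, higher in both hairpin libraries (log2 0.68 and 0.91), and KCNH7 had 21.0, 13.7 and 22.2 CPM, lower in sh1362. The 3 genes of that branch thus each had another pattern over the same libraries. KCNH7 shares exon bases with GCA on the other strand, which had 1037, 507 and 541 counts. The part of GCA reads in the KCNH7 counts was not tested. KCNH8 was nearly level at 25.2, 22.4 and 21.8 CPM, and KCNH3 and KCNH5 had no more than 27 counts in any library. KCNH3 also shares exon bases with a gene on the other strand, MCRS1, which had 536, 401 and 304 counts.

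The silent modifier KCNS3 was second by mean CPM in the class of voltage-gated potassium pores. It had 54.8, 50.9 and 49.8 CPM in sh490, sh1362 and shGFP, and varied little over the libraries. KCNB2, a delayed rectifier pore with which such modifiers assemble, was lower, at 11.9, 9.70 and 14.3 CPM. KCNG3, another modifier, had 68, 23 and 24 counts and was high in sh490 alone. KCNF1 had 52, 48 and 51 counts, and the edgeR fit of both hairpins against shGFP gave it a log2 difference of -0.69. KCNV1 had 154, 97 and 100 counts. These counts are not scaled for depth, and the shGFP library was the shallowest.

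The A-type channels of the Kv4 family, which inactivate fast, were all detected. KCND3 had 17.7, 6.20 and 24.5 CPM in sh490, sh1362 and shGFP, so sh1362 was the low library, at 0.251 times the control (0.175 to 0.355). KCND2 had 21.8, 17.2 and 25.7 CPM (log2 -0.28 and -0.58), and KCND1 had 30, 23 and 13 counts. Of the Kv1 family only KCNA2, a delayed rectifier of axons, passed 1 CPM, with 22.6, 21.4 and 26.3 CPM. Of the 5 KCNQ genes, which carry the M-current and its relatives, only KCNQ5 passed, with 21.2, 20.1 and 30.4 CPM (log2 -0.56 and -0.60). The fast Kv3 channels KCNC4 and KCNC1 had means of 12.9 and 4.71 CPM.

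KCNE4 was the most abundant potassium channel gene and the only one of 5 KCNE genes above 1 CPM. It had 613, 1149 and 1050 counts in sh490, sh1362 and shGFP, equal to 78.7, 155 and 214 CPM. The 3 libraries were well apart: sh490 lay at 0.356 times the control (0.322 to 0.394), sh1362 at 0.717 times (0.659 to 0.780), and sh490 at 0.497 times sh1362 (0.450 to 0.549). The edgeR test gave a log2 difference of -0.90 (SE 0.41), with an unadjusted p of 0.061 and an adjusted p of 0.986. KCNAB2, a cytoplasmic beta subunit of Kv1 channels, had 23.7, 13.6 and 31.0 CPM and was lowest in sh1362 (log2 -0.42 and -1.18). It shares exon bases with NPHP4 on the other strand, which had 161, 110 and 62 counts. The Kv4 partners KCNIP3 and KCNIP2 differed from each other. KCNIP3 had 135, 104 and 84 counts, or 17.3, 14.0 and 17.1 CPM (log2 -0.03 and -0.30). KCNIP2 had 27, 58 and 13 counts, high in sh1362 (log2 0.31 and 1.45). KCNIP4, KCNAB1 and KCNAB3 had between 3 and 19 counts in each library.

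The calcium- and sodium-activated potassium class had 7 of 12 genes above 1 CPM and the highest class medians, log2 0.37 with sh490 and 0.77 with sh1362. These are low counts. KCNMA1, the large-conductance calcium-activated pore, had 90, 121 and 42 counts in sh490, sh1362 and shGFP (11.6, 16.3 and 8.57 CPM). KCNT1, a sodium-activated pore, had 43, 67 and 20 counts (log2 0.37 and 1.08), and its relative KCNT2 had 46, 60 and 29 (log2 -0.04 and 0.42). The beta subunits of the large-conductance channel went separate ways. KCNMB2, which makes it inactivate, had 23, 21 and 5 counts, higher with both hairpins (log2 1.26 and 1.24), while KCNMB4 had 24, 7 and 15 counts, low in sh1362 only. KCNMB3 had 61, 38 and 36 counts (log2 0.05 and -0.51), and the small-conductance pore KCNN2 had 19, 12 and 4. KCNMB3 shares exon bases with PIK3CA on the other strand, which had 268, 298 and 298 counts.

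Of the 16 inward rectifiers, 6 passed 1 CPM and 5 were at 0. KCNJ11, the pore of the ATP-sensitive channel that couples glucose to insulin release, had 28.7, 18.6 and 25.3 CPM in sh490, sh1362 and shGFP. KCNJ3, a pore opened by G proteins, had 33.8, 10.8 and 27.1 CPM, so the sh1362 library was low (0.394 times the control, 0.295 to 0.524) and sh490 was not (1.21 times, 0.976 to 1.498). KCNJ16 showed the reverse, with 3.08, 10.4 and 4.29 CPM and sh1362 high. KCNJ2, a classical inward rectifier that stabilises the resting potential, had 18, 30 and 15 counts and KCNJ14 had 18, 31 and 14. KCNJ14 shares exon bases with GRWD1 on the same strand, which had 314, 260 and 185 counts. The part of GRWD1 reads in the KCNJ14 counts was not tested. KCNJ12 and KCNJ18, near-identical copies whose reads the counting may leave out, were both at 0.

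Two-pore leak channels, which hold the resting potential, had 7 of 15 genes above 1 CPM. KCNK3, an acid-sensitive leak channel, had 335, 585 and 193 counts in sh490, sh1362 and shGFP (43.0, 78.8 and 39.4 CPM). The sh1362 library was the high one, at 1.99 times the control (1.68 to 2.35), and sh490 did not differ beyond counting error (1.06 times, 0.884 to 1.27). KCNK1 was nearly level at 25.4, 28.8 and 26.7 CPM. KCNK9, a relative of KCNK3, had 10.01, 17.7 and 15.7 CPM and was low in sh490. KCNK6 had 124, 91 and 71 counts, KCNK5 had 56, 42 and 42 and KCNK12 had 15, 19 and 17, all with ratios to shGFP whose intervals include 1. KCNK13 had 36 and 31 counts in the hairpin libraries against 6 in shGFP, higher with both (log2 1.65 and 1.55), with an edgeR unadjusted p of 0.042 and an adjusted p of 0.986.

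The other 66 genes of the symbol rule had a mean under 1 CPM, and none had more than 17 counts summed over the libraries. Of these, 30 were at 0 in all 3 libraries, where a count of 0 allows up to 0.385 CPM in sh490, 0.404 in sh1362 and 0.612 in shGFP (3 counts). Their levels cannot be compared between libraries at this depth.

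No channel gene passed the test of both YES1 hairpins against shGFP. edgeR's quasi-likelihood test with Benjamini-Hochberg adjustment was fitted over 15708 genes and called 0 of 71 channel genes tested in either direction, where it called 0 genes higher (0.0%) and 4 lower (0.0255%) overall. At an unadjusted p under 0.05, which 4.35% of all 15708 genes reached, there were 4 of the 69 described genes, among them CACNA1A and KCNK13, which were higher with both hairpins, and CACNB4, which was lower. DESeq2 and limma-voom also called 0 channel genes, with 1 and 4 of the 69 at an unadjusted p under 0.05. With 1 control library and 1 residual degree of freedom, a gene must differ strongly to be called.

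By size alone, more channel genes were at least 2-fold from the control with sh1362 than with sh490. With sh490, 5 of 69 genes (7.25%) were at least 2-fold higher and 3 (4.35%) lower, beside 3.85% and 3.51% of all 15343 genes whose mean reached 1 CPM. With sh1362, 9 were higher and 9 lower (13.0% each), beside 6.58% and 7.87%. The median channel gene stood at -0.04 with sh490 and -0.10 with sh1362, against 0.00 with both over all genes. The middle 50% of channel genes ran from -0.40 to 0.38 with sh490 and from -0.54 to 0.49 with sh1362, while that of all genes ran from -0.26 to 0.28 and from -0.39 to 0.37. Among genes of 5 CPM or more, 2.22% of 45 channel genes and 2.82% of 11632 genes were 2-fold from the control with sh490, and 20.0% and 9.29% with sh1362. Without that limit the shares were 11.6% and 7.36% with sh490 and 26.1% and 14.5% with sh1362.

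**Figure D3:**
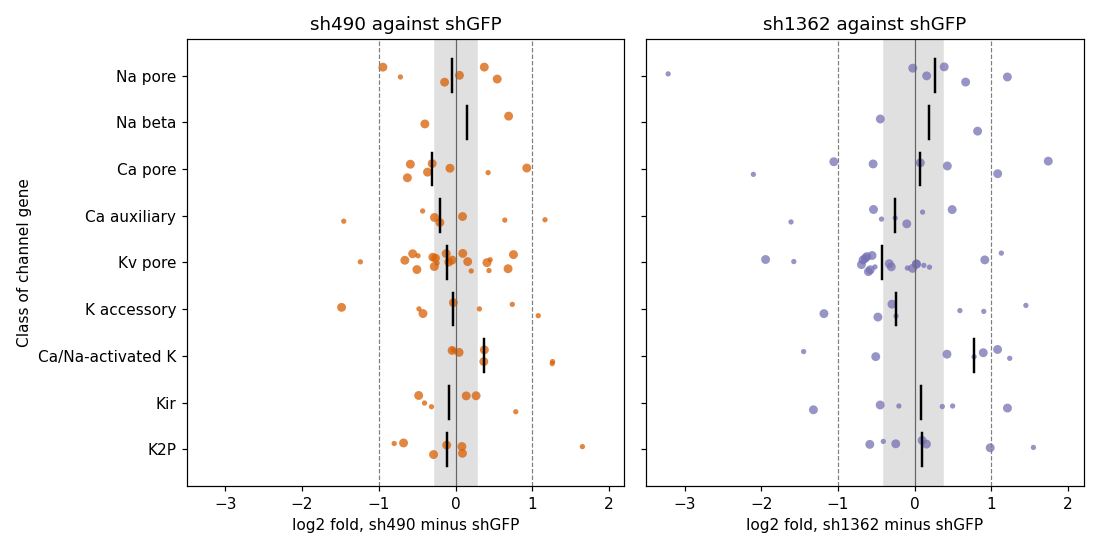
Log2 difference from shGFP of the 69 channel genes by class, with sh490 at the left and sh1362 at the right. Each point is 1 gene (large points have a mean of 5 CPM or more), black bars are class medians, the grey band holds the middle 50% of all 15343 genes of 1 CPM or more, and dashed lines mark 2-fold. Points spread more widely with sh1362, and the class medians of the calcium- and sodium-activated genes are 0.37 and 0.77.

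The genes at least 2-fold from shGFP with both hairpins were 2 of 69 (2.90%) in each direction, beside 2.4% of all genes higher and 1.36% lower. KCNK13 and KCNMB2 were the higher ones, and CACNB4 was among the lower; these had no more than 36 counts in any library. KCNMB2 illustrates the precision, since its ratio of 2.81 with sh490 had an interval of 1.04 to 9.45. Among the 45 genes of 5 CPM or more, 0 were 2-fold in the same direction with both hairpins, beside 0.808% of all genes higher and 0.593% lower. CACNA1A came nearest, at log2 0.93 and 1.74. Both comparisons share the shGFP library, so a low or high count in that library moves both folds alike.

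Setting sh490 directly against sh1362 left out the control. At least 2-fold higher in sh490 were 7 of 69 genes (10.1%, beside 5.72% of all genes), and 4 were higher in sh1362 (5.80%, beside 4.68%). Among genes of 5 CPM or more the numbers were 3 each (6.67% of 45), beside 3.88% and 2.02%. KCNJ3 (3.06 times, 2.38 to 3.98), KCND3 (2.79 times, 1.99 to 3.99) and KCNG3 (2.75 times, 1.69 to 4.63) were higher in sh490. KCNJ16 (0.290 times, 0.176 to 0.464), CACNA1E (0.349 times, 0.222 to 0.538) and KCNE4 (0.497 times, 0.450 to 0.549) were lower in sh490 than in sh1362. With library totals in place of TMM, KCNE4 was just under 2-fold apart (log2 -0.97). For KCNJ3, KCND3, KCNJ16 and CACNA1E the library away from the control was sh1362, and for KCNE4 it was mainly sh490. These differences are between libraries with the same target and have no replicate check.

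**Figure D4:**
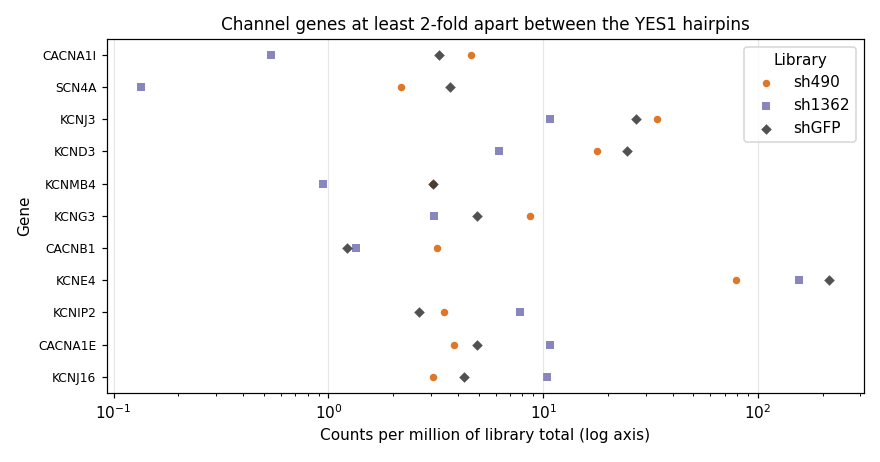
The 11 channel genes at least 2-fold apart between the YES1 hairpin libraries, ordered from higher in sh490 (top) to higher in sh1362 (bottom), on a log axis of CPM. Each symbol is 1 library (circle sh490, square sh1362, diamond shGFP), with no replicates. In CACNA1I, SCN4A, KCND3 and KCNMB4 the sh1362 library lies far below the other symbols, and in KCNE4 sh490 is the lowest.

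A list of 42 partners of these channels outside the symbol rule gave 24 genes of 1 CPM or more. Of 25 tested with edgeR, 0 passed the adjusted threshold and 1 had an unadjusted p under 0.05, beside 4.35% of all genes. The median log2 difference of the 24 was -0.05 with sh490 and 0.07 with sh1362; 0 were at least 2-fold higher and 2 lower with sh490, and 3 were higher and 4 lower with sh1362. Over all genes of 1 CPM or more these shares were 3.85% and 3.51% with sh490 and 6.58% and 7.87% with sh1362. GEM, a small GTPase that binds calcium channel beta subunits and inhibits the channel, was the gene under that p. It had 64, 44 and 144 counts in sh490, sh1362 and shGFP (8.21, 5.93 and 29.4 CPM), with an edgeR adjusted p of 0.858. The hairpin libraries were both low for GEM, at log2 -1.84 and -2.27. FGF13, which binds the tail of sodium channels, had 340, 77 and 176 counts and was low in sh1362 alone (log2 0.24 and -1.77). ANK2 had 694, 1286 and 395 counts, high in sh1362. NALCN, the sodium leak pore, was at 0 in all libraries, while its subunits UNC80 and NALF2 had means of 39.9 and 22.3 CPM. The transcriptional repressor REST, which represses many neuronal channel genes outside neurons, had 183, 72 and 100 counts.

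RefSeq promoter windows (GRCh38.p14, 250 bases before to 50 after the start) were found for 52 of the 69 described genes, giving 87 windows, and for 45 of the others, giving 62. SCN3A and KCNE4 had no window, so the search does not cover them. Windows were searched on both strands for TTCAGCACC and GGACAG, the left and right parts of the element that REST binds, and for CAGCTG, an E-box of the kind bound by basic helix-loop-helix factors. The words were chosen after values had been seen. TTCAGCACC was in 2 of 87 windows (2.30%) of described genes, in 1 of 62 (1.61%) of the others and in 0.376% of all 35116 windows. GGACAG was in 25.3%, 25.8% and 20.5% of these, and CAGCTG in 18.4%, 29.03% and 17.9%. Windows of described genes had a median G+C of 65.0%, beside 61.8% for the others and 58.7% for all. The windows with TTCAGCACC belong to KCNH6 and KCNK3, and they are printed with that of CACNA1A, the channel gene with the lowest edgeR p, which holds none of these words. Each reads 5′ to 3′ along its gene, with the words in capitals: KCNH6 at chr17:63523108-63523407 (plus strand), KCNK3 at chr2:26692472-26692771 (plus strand) and CACNA1A at chr19:13506430-13506729 (minus strand).
KCNH6: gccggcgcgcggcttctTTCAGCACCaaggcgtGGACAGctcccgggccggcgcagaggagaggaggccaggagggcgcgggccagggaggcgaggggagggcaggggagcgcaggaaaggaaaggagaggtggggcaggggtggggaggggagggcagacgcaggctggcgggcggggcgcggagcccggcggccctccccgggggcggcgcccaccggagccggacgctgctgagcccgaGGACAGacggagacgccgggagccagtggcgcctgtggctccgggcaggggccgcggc
KCNK3: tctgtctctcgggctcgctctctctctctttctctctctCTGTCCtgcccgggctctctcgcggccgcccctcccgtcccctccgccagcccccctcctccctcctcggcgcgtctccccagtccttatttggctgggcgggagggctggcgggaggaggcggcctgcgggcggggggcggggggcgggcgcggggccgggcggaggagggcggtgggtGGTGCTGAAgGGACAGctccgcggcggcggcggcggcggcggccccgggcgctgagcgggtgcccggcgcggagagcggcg
CACNA1A: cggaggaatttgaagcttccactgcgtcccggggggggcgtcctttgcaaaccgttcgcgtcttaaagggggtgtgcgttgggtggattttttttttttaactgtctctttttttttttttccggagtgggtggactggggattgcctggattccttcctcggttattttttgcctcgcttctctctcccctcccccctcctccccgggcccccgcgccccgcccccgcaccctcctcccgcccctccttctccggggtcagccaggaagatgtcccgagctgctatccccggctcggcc

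In KCNH6 both parts read along the gene, TTCAGCACC from base -233 and GGACAG from base -217 before the start, with 7 bases between. In KCNK3 the word lies on the opposite strand from base -31, with GGACAG on the gene's strand from base -21. A match is a description of letters in a window and not a bound site. KCNH6 was higher in both hairpin libraries (log2 0.68 and 0.91) and KCNK3 in sh1362 (log2 0.08 and 0.98), while REST stood at log2 0.16 with sh490 and -1.06 with sh1362. Whether the words have a part in these levels was not tested.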

How the data were processed

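RNA from 3 libraries was analysed. The deposited values are raw counts per gene with no normalization. Reads were checked with FastQC 0.11.8 and aligned with STAR 2.6.1c to GRCh38, per the submitters' processing notes. Exons of GENCODE 32 were counted with featureCounts 1.6.0, per the file headers, with no strand or pair option recorded; of the 69 genes, 31 share exon bases with another gene, 14 of them with one holding over 10% of their counts.

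The members and lists were chosen with earlier results of these data known. Symbols came from a table of gene names, and protein-coding status from GENCODE 29 and RefSeq together. CPM used library totals. edgeR 4.0.16 (R 4.3.3) compared both YES1 hairpins with shGFP: TMM, filterByExpr defaults, robust quasi-likelihood F test, two-sided, Benjamini-Hochberg adjusted p under 0.05 over all genes tested. The fit was also run on counts simulated with the spread estimated from these same libraries, as a check of the code and not of the calls. Only 1 residual degree of freedom gave the spread, and the lone control was assumed to vary like the hairpin libraries. Alternatives were DESeq2 1.42.0, limma 3.58.1 (voom), other scaling, prior count 0.5 and other filters. Ratios between libraries are of TMM-scaled counts, with exact 95% binomial intervals.

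Values were given per library for the 3 highest genes by mean CPM in each class, and for genes of 5 CPM or more at least 2-fold apart between the hairpins or, in 1 direction, from shGFP with both; some genes are not reported here, and other genes described were chosen after their values were seen. The search for protein motifs planned for these genes was not run, and proteins are not analysed here.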

Additional observations from a re-analysis of the deposited data

How the results depend on the processing

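Counts by size depended on the floor on level. With a mean of 5 CPM or more in place of 1, the channel genes at least 2-fold from shGFP numbered 0 higher and 1 lower with sh490, 5 higher and 4 lower with sh1362, and 0 higher and 0 lower with both, and 3 were at least 2-fold higher in sh490 than in sh1362; fewer genes enter this setting. With 1 hairpin left out, the count higher than shGFP ranged from 5 to 9 and the count lower from 3 to 9, because a single hairpin then decides. Without the filter on low counts edgeR called 1 channel gene higher, CACNA1A, and 58 of 27622 genes in all, against 4 of 15708; the cause was not tested. The median with sh490 was -0.0037 with library totals in place of TMM and -0.0886 at 5 CPM or more. Among values near 0, KCNIP3 with sh490 went from log2 -0.03 to 0.01 with library totals, and the fitted log2 fold of both hairpins changed sign for KCNJ2 (0.03, and -0.06 with limma-voom) and KCNK1 (-0.01, and 0.02 without the filter and 0.0011 at 5 CPM or more); no other channel gene or channel median that was recomputed changed sign. No paired analysis was possible because the labels give no replicate numbers and there is 1 shGFP library. The test without either hairpin could not be run, since 1 library against 1 leaves no residual degree of freedom. Genes with few counts carry wide counting intervals, so their 2-fold calls are the least certain.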
